A study of Mus musculus with 6 samples.

Results

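The comparison set a 10x Genomics 5′ single-cell protocol with added dNTP and longer extension times against the unmodified 5′ protocol, in 4 of the 6 libraries of the study (2 per protocol). The 4 libraries were chosen by their labels alone, and every gene outside the X and Y chromosomes was compared. The remaining 2 libraries were made with the 3′ kit and entered the fit to help estimate the spread. All libraries were labelled as spleen from female mice aged 10 weeks, which the series text gives as C57BL/6, and no genotype or drug treatment separated the groups. In the modified protocol, 1 µl of 10 mM dNTP was added at reverse transcription and at cDNA amplification. The reverse transcription step lasted 2 h in place of 45 min, and the amplification extension 3 min in place of 1 min. Both protocols used whole, unfragmented cDNA and Nanopore sequencing. Added dNTP, the longer reverse transcription and the longer amplification were changed together, so their parts cannot be told apart.

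The libraries fall into 2 numbered pairs, each with 1 standard and 1 modified library. The second pair is numbered in its titles and the first carries no number, which was read as 1. The extraction text for number 1 describes spleens passed through a strainer and red cell lysis. That for number 2 describes pancreatic islets whose insulin cDNA was cut away with Cas9, and these libraries too carry spleen as their tissue. B cell and T cell markers were detected in all 4 libraries, with none of the 20 B cell and 22 T cell markers at 0. In number 2, insulin mRNA was counted in 1 library only. Modified 2 held 48 counts of Ins2 and 15 of Ins1, and both genes had 0 counts in standard 1, standard 2 and modified 1. A list of 17 pancreas markers, insulin included, had 118 counts in modified 2, 19 in standard 2 and 9 in each library of number 1. Of these markers, 5 were at 0 in modified 2 and 13 in standard 2. The labels do not say that the libraries came from separate animals, so p-values here measure the spread between these libraries, which may be technical.

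In a 5′ library, reverse transcriptase copies an mRNA from its poly(A) tail toward the cap, and a template switch at the cap joins the cell barcode to that end of the molecule. A cDNA that stops short of the cap is less likely to acquire the barcode. The supply of dNTP and the time for extension are settings of this copying step and of the amplification that follows.

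A barcode was kept as a cell when it held 200 or more genes and no more than 20% mitochondrial counts. Kept cells numbered 861 and 3208 in standard 1 and 2, and 2022 and 3111 in modified 1 and 2, with 365826, 1939023, 1198528 and 2101662 counts in the same order. Standard 1 stood apart: the filter kept 34.0% of its barcodes, against 85.6% in standard 2, 78.3% in modified 1 and 89.9% in modified 2. Between 2 and 14 cell barcodes were shared by any 2 of these libraries.

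The median kept cell held 332 and 488 counts in the standard libraries and 482.5 and 543 in the modified libraries. Median genes per cell were 246 and 342 against 337 and 375. Both medians were higher in the modified library of each number, but standard 2 lay above modified 1, and the exact permutation test gave p = 0.667 for each (two-sided, where 2 against 2 cannot go below 0.333). When cells were thinned to 300 counts, leaving out 313 of 861 and 134 of 3208 shallower standard cells and 86 of 2022 and 82 of 3111 modified ones, the standard libraries gave 225.7 and 227.7 genes per cell and the modified ones 227.0 and 228.5, again overlapping (exact permutation p = 0.667). In cells of B-like clusters, the thinned number was higher by 1.92 and 1.91 genes in numbers 1 and 2. In T-like clusters it was lower by 2.74 and 1.38 genes. The groups did not overlap in either class, at the smallest p the design allows (exact permutation p = 0.333). Thinned to 500 counts, B-like cells gave 347.0 and 344.4 genes with the standard protocol and 346.5 and 348.5 with the modified one, so the groups overlapped and the difference in number 1 was negative. T-like cells gave 364.1 and 346.5 against 341.8 and 344.4, again without overlap. The values of standard 1 rest on its deeper cells. At 300 counts, 184 of its 345 T-like cells and 272 of its 409 B-like cells were left, against 932 of 953 and 1745 of 1841 in standard 2. Its T-like median was 305 counts, and only 153 of its 861 cells of all classes held 500. With each whole library thinned to 200000 counts, 11388 and 11286 genes were seen with the standard protocol and 11547 and 11474 with the modified one, a difference of 159.4 and 188.7 genes within the numbers (exact permutation p = 0.333). B-like clusters held 47.5% and 57.4% of the standard cells and 58.7% and 57.5% of the modified cells, and T-like clusters 40.1% and 29.7% against 32.4% and 27.8%. The shares of standard 2 and modified 2 differed by 0.15 percentage points for B-like cells, while those of number 1 differed by 11.2 (exact permutation p = 0.333 for B-like and 0.667 for T-like shares). With finer clusters (Leiden resolution 1.0) the B-like share was higher by 10.8 points in number 1 and different by -5.82 in number 2 (exact permutation p = 0.667), and the T-like share differed by -7.83 and -3.99 (exact permutation p = 0.333).

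Counts were summed per gene over the kept cells and tested with edgeR's quasi-likelihood test, with the pair number as a block. Of 11213 genes tested, 9 were higher and 11 lower in the modified libraries at a Benjamini-Hochberg adjusted p of at most 0.05, which is 0.178% of the genes (0.0803% higher and 0.0981% lower). The higher genes were AY036118 from the ribosomal RNA locus, the ribosomal protein genes Rps21 and Rps15, Bola2, the neutrophil genes Camp, Ngp, S100a8 and S100a9, and the antibody heavy chain gene Igha. The lower genes included genes expressed in red cells or found with them here (Hbb-bs, Hbb-bt, Klf1, Rhd, Hemgn, Cldn13 and Mgst3), the proliferation genes Cdk1 and Ube2c, and the antibody light chain gene Iglc1. Levels are given as CPM, the counts of a gene scaled to a common library total. The median log2 fold change over all genes was -0.01. Without the replicate block, edgeR called 0 genes in either direction (451 at an unadjusted p under 0.05), and over all barcodes, with no cell filter, it also called 0 (768 at an unadjusted p under 0.05). In fits without standard 2 or without modified 2, the library left in number 2 still entered, tied to number 1 through the 3′ libraries. There the log2 fold change of AY036118 was 2.23 and 2.27, against 1.66 in the main fit.

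**Figure D1:**
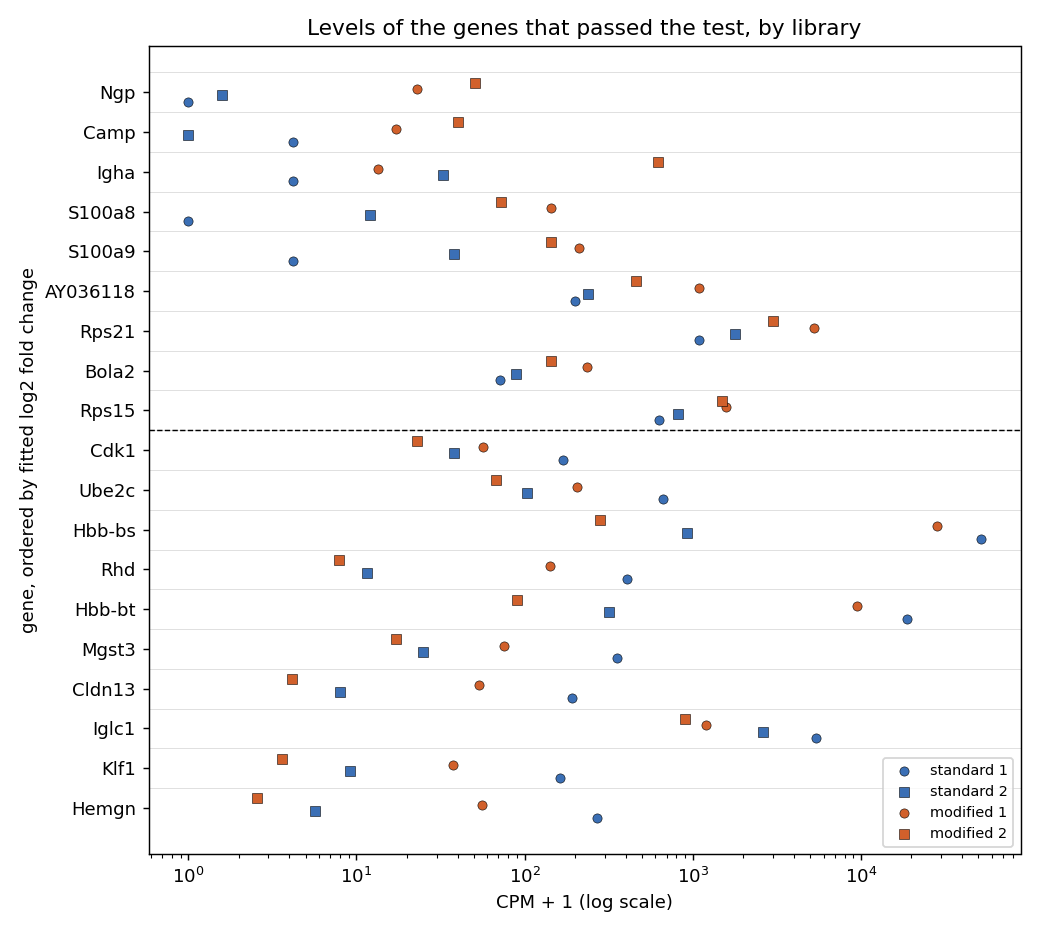
Level of 19 of the genes that passed the test in the 4 libraries, as CPM plus 1 on a log axis (blue standard, orange modified, circles number 1, squares number 2, genes above the dashed line higher). AY036118, Rps21, Bola2 and Rps15 have both modified libraries above both standard ones, while most lower genes are separated more by number than by protocol.

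Only 9 of the 20 called genes had both modified libraries on the same side of both standard libraries. Among all genes tested, 4041 (36%) did not overlap between the groups in this way. The differences did not spread alike in the 2 numbers. For the 3483 genes of at least 50 CPM on average, the SD of the log2 difference between modified and standard was 0.616 in number 1 and 0.278 in number 2. A difference of 2-fold or more was seen for 253 of these genes in number 1 and for 16 in number 2. Standard 1 had 351335 tested counts, against 1858337 in standard 2, 1148173 in modified 1 and 2012724 in modified 2. Counting noise is larger in a shallow library, and its part in these values was not tested. The sign of the 2 differences was the same for 61.0% of the genes.

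**Figure D2:**
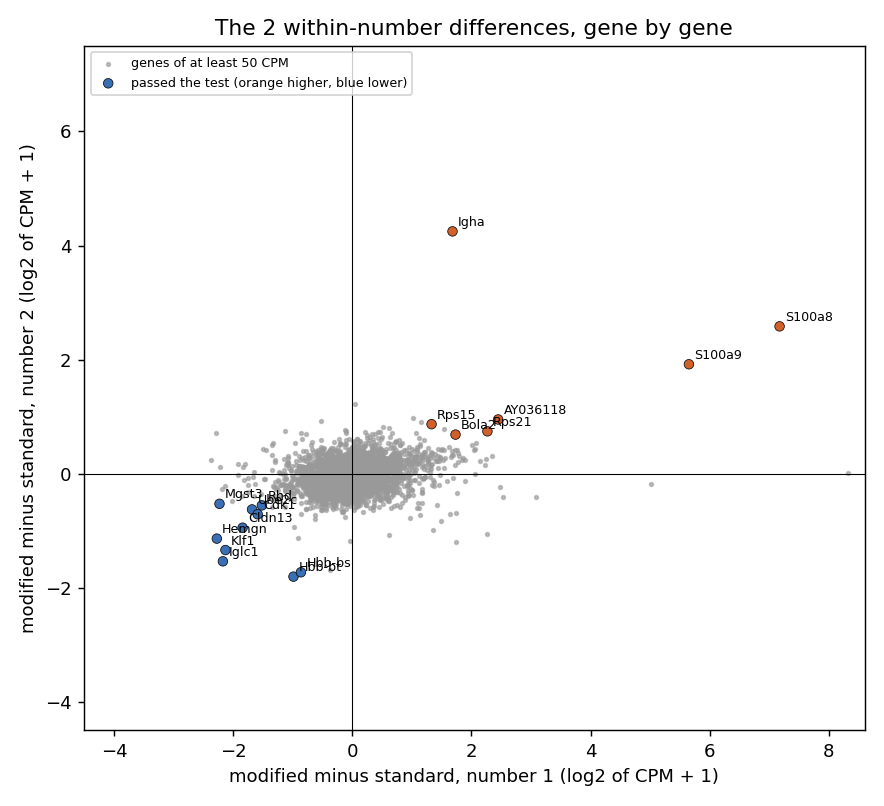
Log2 difference between the modified and the standard library (CPM plus 1) in number 1 (x axis) against number 2 (y axis), for 3482 of the 3483 genes of at least 50 CPM. Grey points spread more along number 1 (SD 0.616) than along number 2 (SD 0.278), and the genes shown as having passed the test lie in the corners where both differences have the same sign. Number 1 includes standard 1, the shallowest library.

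Of the rises, 4 were spread over many cells. AY036118 (ENSMUSG00000105361.1), annotated as a long noncoding RNA at chr17:39847113-39848035 on the minus strand of GRCm38, had 197 and 239 CPM in the standard libraries and 1083 and 462 CPM in the modified ones. Both modified libraries were above both standard libraries, and the fitted log2 fold change was 1.66 ± 0.25 (SE, edgeR adjusted p = 0.00033). Its locus holds ribosomal RNA: all of the 31-base words of its transcript also occur in the annotated ribosomal RNA gene CT010467.1, so counts of the 2 cannot be told apart by sequence. The counts came from 61 and 363 standard cells and from 816 and 701 modified cells, and no cell held more than 3.23% of them. In the 3′ libraries AY036118 stood at 815 and 691 CPM. The 3 other genes of the same list, which holds loci with ribosomal or small structural RNA, had positive differences in both numbers and did not pass the test.

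Rps21, a component of the small ribosomal subunit, had 1095 and 1788 CPM in the standard libraries and 5283 and 2991 CPM in the modified ones. The fitted log2 fold change was 1.45 ± 0.24 (SE, edgeR adjusted p = 0.0018). Rps15, of the same subunit, had 630 and 818 CPM against 1587 and 1494 CPM, a log2 fold change of 1.06 ± 0.21 (SE, edgeR adjusted p = 0.015). For both genes the modified libraries lay above both standard ones, and no cell held more than 1.52% of the counts. Processed copies of ribosomal protein genes share their sequence: 35.3% of the 31-base words of Rps21 and 50.7% of those of Rps15 occur in other annotated genes, so their counts are uncertain to that extent. Bola2, which takes part in the maturation of cytosolic iron-sulfur proteins, rose from 70.0 and 88.3 CPM to 235 and 143 CPM, a log2 fold change of 1.10 ± 0.23 (SE, edgeR adjusted p = 0.022). Tomm7, a small subunit of the mitochondrial import channel, came next by p among abundant genes and did not pass, with 115 and 191 CPM against 484 and 258 CPM and a log2 fold change of 1.10 ± 0.25 (edgeR adjusted p = 0.056). These rises rested unequally on the pairs. Without standard 1, the adjusted p of edgeR was 0.014 for AY036118, 0.475 for Rps21, 1.00 for Rps15 and 0.503 for Bola2, with log2 fold changes of 1.22, 0.82, 0.73 and 0.85. In a fit of the 4 5′ libraries alone AY036118, Rps21, Rps15 and Bola2 did not pass (edgeR adjusted p = 0.055, 0.10, 0.064 and 0.23), and the 5 genes called higher there were Camp, Ngp, S100a8, S100a9 and Igha. Without the cell holding the most counts of each gene, an alternative added after seeing the data, AY036118 and Rps21 passed (edgeR adjusted p = 0.0075 and 0.035), while Rps15 and Bola2 did not (0.081 and 0.080). Over all alternatives the highest adjusted p of each was 0.999 or more, and the lowest ran from 1.1e-14 for AY036118 to 1.6e-05 for Rps15.

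The 4 spread rises were also seen within cell classes. In B-like cells, AY036118 went from 156 and 196 CPM to 975 and 404 CPM, and in T-like cells from 259 and 289 CPM to 1134 and 500 CPM. The log2 fold changes were 1.69 and 1.44. Rps21 rose by a log2 of 1.41 in B-like and 1.43 in T-like cells, and Rps15 by 1.09 and 1.06. Each of these 3 genes passed the test in both classes, where 14 of 9099 genes (0.154%) were called in B-like cells, 0.121% higher and 0.033% lower, and 4 of 7510 (0.0533%) in T-like cells, all higher. Bola2 passed in B-like cells (log2 1.14, edgeR adjusted p = 0.042) and had a log2 fold change of 1.11 in T-like cells (edgeR adjusted p = 0.10). The difference between the classes was itself tested, and 1 of 8934 genes (0.0112%), the light chain gene Igkc, passed. The gene called in T-like cells besides these was Rplp1, a small acidic protein of the ribosomal stalk, with 4593 and 5537 CPM against 10532 and 9289 CPM (log2 1.00). Of its 31-base words, 75.1% occur in 15 other genes, so its counts are uncertain too. The other genes called higher in B-like cells, named here after their values were seen, were Tomm7, the respiratory chain subunits Uqcr11 and Ndufc1, the ribosomal protein-like genes Gm6525 and Rps27rt, the globin gene Hba-a2 and Atl1. Their log2 fold changes ran from 0.93 for Gm6525 to 4.27 for Atl1, and Atl1 had 1 to 33 counts per library over all kept cells. In B-like cells Atl1 had 0 and 1 counts in standard 1 and 2, and 9 and 24 in modified 1 and 2. In modified 2, 65 counts of Hba-a2 lay in 6 B-like cells, and 1 of these cells held 60.

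The neutrophil rises, in contrast, came from single cells. Camp, Ngp, S100a8 and S100a9 encode antimicrobial and calcium-binding granule or cytosolic proteins abundant in neutrophils. S100a8 had 0 and 11.1 CPM in the standard libraries and 143 and 71.5 CPM in the modified ones, and S100a9 had 3.18 and 36.9 CPM against 209 and 142 CPM. Their fitted log2 fold changes were 3.62 ± 0.49 and 2.84 ± 0.39 (SE). Camp had 1 count in the standard libraries together and 92 in the modified ones, a ratio of 64.3 after scaling by depth (95% counting interval 11.3 to 2566). Ngp had 1 count against 117, a ratio of 81.7 (95% counting interval 14.4 to 3256). These intervals treat every count as a separate draw. In each modified library all counts of Camp and of Ngp lay in 1 cell, so the intervals do not cover variation between cells or libraries. In modified 1, all 409 counts of the 4 genes lay in 1 of 2022 cells. In modified 2, 1 cell held 560 of 575 counts. Standard 2 had 83 counts of the 4 genes in 6 cells, 3 of them with at least 10, and standard 1 had 2 counts. With the cell holding the most counts of each gene left out of each library, the log2 fold changes of S100a8 and S100a9 were -1.46 and -1.88 and did not pass (edgeR adjusted p = 0.83 and 0.23), and Camp and Ngp were too low to test. In that fit 4 genes were called higher and 8 lower, of 10830 tested (0.0369% and 0.0739%).

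Over the whole neutrophil list, 4 of 14 genes tested were higher and 0 lower, where 0.0803% of all genes tested were higher. The median log2 fold change of the list was 3.17 (3.26 in number 1 and 0.80 in number 2). The summed level of its 16 members was 56.6 and 94.1 CPM in the standard libraries and 569 and 363 CPM in the modified ones. In standard 1, 11 of the 16 were at 0, and in standard 2, 5 of the 16. Genes at 0 there could pass the filter on low counts through the other libraries, so the list median is not independent support for a rise. The list had 658 counts in modified 1 and 736 in modified 2. Single cells held 409 and 560 of these, from the 4 called genes alone.

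**Figure D3:**
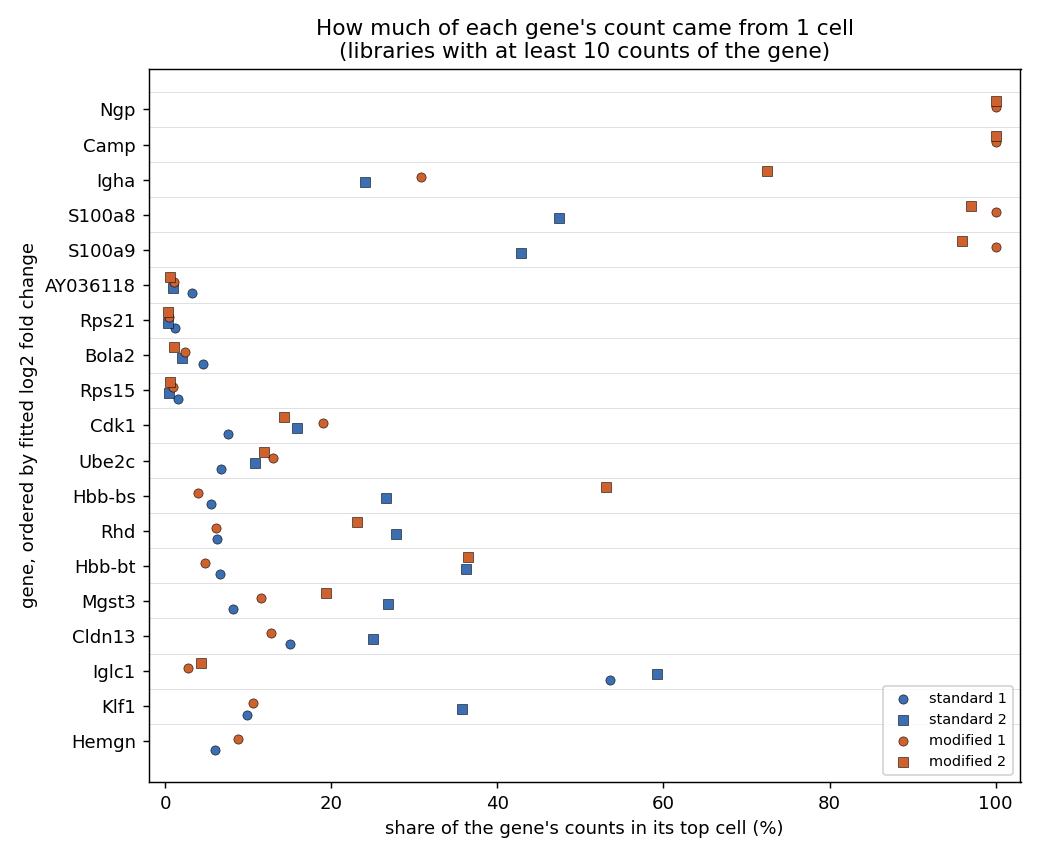
Share of the counts of 19 called genes that came from the single cell with most of them, in percent, for libraries with at least 10 counts of the gene. The neutrophil genes sit at 95.9 to 100% in the modified libraries and Iglc1 at 53.6 and 59.3% in the standard ones, while AY036118, Rps21, Bola2 and Rps15 stay at 4.55% or less.

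Some antibody genes also drew many of their counts from single cells. Iglc1, a constant region of the lambda light chain, fell from 5411 and 2624 CPM to 1200 and 903 CPM, with no overlap between the groups (log2 fold change -1.83 ± 0.22, SE, edgeR adjusted p = 1.7e-05). In standard 1, a single cell held 911 of its 1700 counts (53.6%), and in standard 2 another held 2659 of 4486 (59.3%). In the modified libraries the top cell held 2.71% and 4.37%. Without the top cells the log2 fold change was -0.75 (edgeR adjusted p = 0.40), and among B-like cells it was -1.22 (edgeR adjusted p = 0.0023). The B-like value includes the top cell of standard 1, since 1126 of the 1700 counts there lay in B-like cells. Igha, the heavy chain constant region of IgA, had 3.18 and 31.6 CPM in the standard libraries and 12.4 and 618 CPM in the modified ones. The groups overlapped, and 852 of its 1175 counts in modified 2 lay in 1 cell. Its log2 fold change was 3.64 ± 0.74 (SE, edgeR adjusted p = 0.018), and it was -1.38 (edgeR adjusted p = 0.17) without modified 2. Without the top cell of each library Igha still passed, at a log2 fold change of 2.73 (edgeR adjusted p = 0.0028). Ighg3, named after its values were seen, did not pass the test and had 1334 CPM in modified 1 against 14.2 CPM or less in the other 3 libraries, with 916 of 1395 counts in 1 cell. Among the 10 immunoglobulin constant genes tested, 1 was called higher and 1 lower. Of all genes tested, 0.0803% were called higher and 0.0981% lower.

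Plasma cells did not fall in the same clusters in every library. Of the 710 counts of Jchain, the joining chain of secreted IgM and IgA, 622 lay in B-like clusters in standard 1, against 6 of 3482 in standard 2, 215 of 1457 in modified 1 and 8 of 4124 in modified 2. Over all kept cells Jchain had 2260 and 2037 CPM in the standard libraries and 1393 and 2170 CPM in the modified ones (log2 -0.36 ± 0.27, SE, edgeR adjusted p = 0.89). Its fall within B-like cells (log2 -2.94) compares clusters with different shares of the Jchain counts. Ly6c2, the other gene called lower there besides Iglc1, had 50 counts in B-like cells of standard 1, 19 in standard 2, 17 in modified 1 and 14 in modified 2.

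The erythroid falls were largest in level in number 1. Hbb-bs and Hbb-bt encode the adult beta globins, Klf1 is a transcription factor of red cell precursors, Rhd encodes a red cell membrane protein, and Hemgn is a nuclear protein of haematopoietic precursors. Hbb-bs had 51753 and 925 CPM in the standard libraries and 28476 and 278 CPM in the modified ones, a log2 fold change of -1.26 ± 0.21 (SE, edgeR adjusted p = 0.0015). Klf1 had 162 and 8.19 CPM against 36.3 and 2.63 CPM, a log2 fold change of -2.03 ± 0.33 (SE, edgeR adjusted p = 0.0011). Hemgn had 267 and 4.68 CPM against 54.5 and 1.58 CPM, a log2 fold change of -2.20 ± 0.29 (SE, edgeR adjusted p = 6.8e-05). In each of these genes the modified library was the lower of its number, and modified 1 was above standard 2, so the groups overlapped. Hbb-bt and Rhd had log2 fold changes of -1.35 and -1.31. In number 2 the levels of Hemgn and Klf1 rest on 3 to 14 counts per library.

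At the clustering used throughout, a cluster was named erythroid-like in number 1 alone. It held 54 of 861 cells (6.27%, exact 95% interval 4.75 to 8.10) in standard 1 and 30 of 2022 (1.48%, 1.00 to 2.11) in modified 1. The intervals given here treat each cell as a separate draw, so they do not cover variation between libraries. With finer clusters (Leiden resolution 1.0), 37 of 3208 cells (1.15%, 0.813 to 1.59) of standard 2 formed an erythroid-like cluster, and 34 cells of modified 2 formed an unnamed one led by Car1 and cell cycle genes. At that resolution Hbb-bt, Hba-a2, Hbb-bs and Alas2 were also among the leading genes of a monocyte-like cluster of 79 cells in modified 1, so the shares of number 1 need not cover the same cells. In number 1, most counts of the following called genes sat in the erythroid-like cluster. It held all 84 counts of Hemgn in standard 1 and 52 of 57 in modified 1. For Rhd it held 125 of 127 and 129 of 147, and for Cldn13, an erythroid claudin, 59 of 60 and 45 of 55. Mgst3, a glutathione-handling membrane enzyme, had 107 of 111 and 54 of 78 counts there. Cdk1, the mitotic kinase, had 47 of 53 and 40 of 58, and Ube2c, an enzyme of mitotic exit, 194 of 208 and 167 of 215. Within number 1, globin mRNA lay differently among cells. Outside the erythroid-like cluster were 3.25% of the Hbb-bs counts in standard 1 and 49.3% in modified 1. For Hbb-bt the values were 2.43% and 52.0%. In B-like cells the log2 fold changes of Hbb-bs and Hbb-bt were 0.74 and 0.75 (edgeR adjusted p = 0.37 and 0.39). Over all barcodes they were 0.43 and 0.50 (edgeR adjusted p = 0.64 and 0.57). These values had the opposite sign to those over kept cells. In modified 2, 1 cell held 281 of the 324 Hbb-bs counts in B-like cells. A kept cell had to hold 200 genes, and the share of barcodes that did was 34.0% in standard 1 and 78.3% in modified 1.

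Over the erythroid list without globins, 4 of 17 genes were called lower and 0 higher, where 0.0981% of all genes tested were called lower. Of the 17, 12 were lower in both numbers, where 27.4% of all genes tested were. The median log2 fold change was -0.85, with -1.35 in number 1 and -0.40 in number 2. The cell cycle list had 2 of 30 genes called lower, Cdk1 and Ube2c, beside the same share of 0.0981% over all genes tested. Its median was -1.08 in number 1 and -0.03 in number 2.

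The called globin and erythroid list genes were each lower over kept cells, and their promoters are shown where a searched motif was present. GATAAG, read on either strand (as CTTATC on the other), is a form of the site bound by GATA transcription factors, which direct red cell genes. It was searched in the 250 bases before each annotated start in the RefSeq promoter table (build GRCm38.p6). It was present for 4 of the 5 called globin and erythroid list genes that are named here, a set picked by its falls in these data. Of all globin and erythroid list genes tested, called or not, 7 of the 16 promoters (43.8%) held it. So did 6.55% of all 32851 promoters in the table. CCACACCC, the CACCC-box form read by Klf1, was searched on both strands as well. It was present for 1 of the 5, in 1 of the 16 promoters (6.25%), and in 3.20% of all promoters. Capitals mark the matches, and each sequence is written 5′ to 3′ along the gene.
Hbb-bs, chr7:103827994-103828157, minus strand: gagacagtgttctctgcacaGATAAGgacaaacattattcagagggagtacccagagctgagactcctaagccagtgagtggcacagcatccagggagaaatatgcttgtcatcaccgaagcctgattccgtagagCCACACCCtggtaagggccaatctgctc
Hbb-bt, chr7:103814102-103814147, minus strand: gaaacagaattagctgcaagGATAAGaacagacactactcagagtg
Klf1, chr8:84901881-84901926, plus strand: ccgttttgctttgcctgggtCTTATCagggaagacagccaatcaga
Rhd, chr4:134864474-134864519, plus strand: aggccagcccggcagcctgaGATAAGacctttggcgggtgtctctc
A match describes these letters and was not tested as a site. Hemgn, the remaining gene, held neither motif in this window. The 2 beta globin genes also share 400 of the 31-base words of their transcripts (66.9% of Hbb-bs and 59.4% of Hbb-bt), so their counts can be split between them arbitrarily.

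Gene lists with few or no called members were described by their medians, against a median of -0.01 over all genes tested. Subunits of the small ribosomal particle had a median log2 fold change of 0.31 (0.52 in number 1, 0.18 in number 2). Of 31 genes, 2 were called higher and none lower, 20 were higher in both numbers and 7 lower in both. Of all genes tested, 0.0803% were called higher, 27.4% were higher in both numbers and 27.4% lower in both. Among the 43 large-subunit genes none was called, and the median was 0.10. Nuclear genes of oxidative phosphorylation, which encode the respiratory chain and ATP synthase, had a median of 0.24 over 78 genes with none called, but 0.56 in number 1 and 0.09 in number 2. Of these, 41 (52.6%) were higher in both numbers, where 27.4% of all genes tested were. Their most abundant members did not pass: Cox4i1 had 1353 and 1405 CPM against 1310 and 1308 CPM (log2 -0.08 ± 0.19, edgeR adjusted p = 0.98). Cox8a had 719 and 783 CPM against 1252 and 951 CPM (log2 0.52 ± 0.19, edgeR adjusted p = 0.50).

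Other lists lay on the lower side with no member called. Of all genes tested, 27.4% were lower in both numbers and 27.4% higher in both. Genes of at least 50 CPM leaned lower as a whole. Their median was -0.05, with 36.5% lower in both numbers and 24.5% higher in both. The proteasome, the complex that degrades tagged proteins, had a median of -0.23 (-0.29 and -0.18 in the 2 numbers), and 33 of its 48 genes (68.8%) were lower in both numbers. T cell markers had a median of -0.29 with 16 of 22 (72.7%) lower in both numbers, beside T-like shares that were also lower in both numbers. Genes of actin, tubulin, thymosin and myosin had a median of -0.18 with 22 of 30 (73.3%) lower in both. Glycolysis genes had a median of -0.26, interferon-stimulated genes -0.25, and immediate early genes -0.21. B cell markers had a median of 0.08 and MHC class II genes one of -0.02. Cd74 and H2-Aa, the invariant chain and a chain of class II molecules, had log2 fold changes of -0.04 and 0.09, below their standard errors of 0.18 and 0.19. Genes for very large proteins had a median of 0.14 over 62 genes (0.07 and 0.14), with none called. Of these, 34 (54.8%) were higher in both numbers and 7 (11.3%) lower in both. Olfactory and vomeronasal receptor genes, whose transcripts are not part of the known programme of spleen cells, had a median of 0.29 over 213 genes tested. None was called, and 87 (40.8%) were higher in both numbers. Their summed level was 2883 and 2489 CPM in the standard libraries and 3163 and 3141 CPM in the modified ones.

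**Figure D4:**
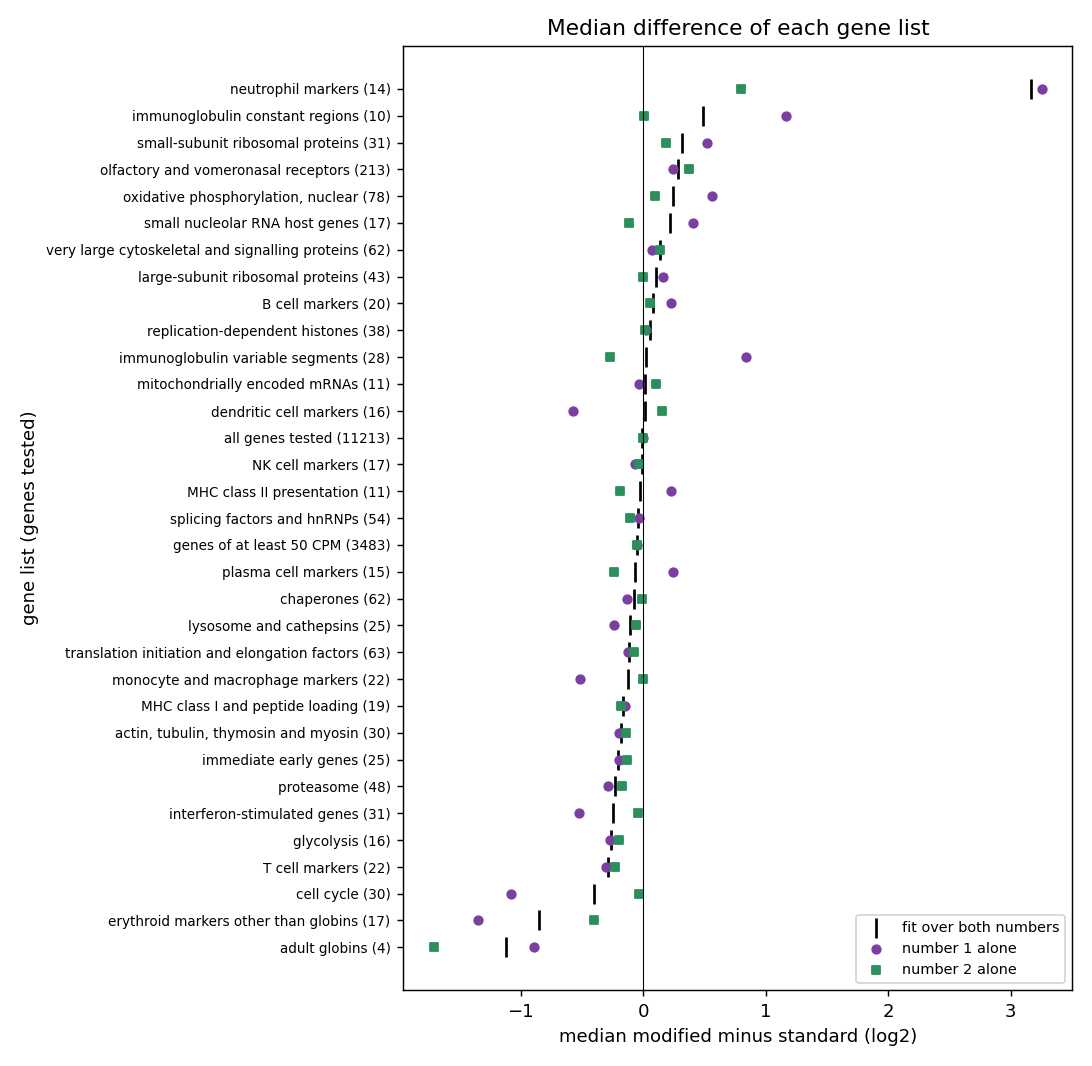
Median log2 difference of each gene list in the fit over both numbers (black bar) and in each number alone (purple circle number 1, green square number 2), with the number of genes tested in brackets. Neutrophil genes lie at 3.17 and erythroid and globin genes at -0.85 and -1.12, while most other lists lie within 0.31 of 0 and differ between the numbers. In each modified library most counts of the neutrophil list came from 1 cell.

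The difference between protocols varied with annotated transcript length in a curve that was not monotone. Genes with a longest annotated transcript under 500 nt had a median log2 fold change of 0.33 (n = 125 genes), those of 1000 to under 2000 nt one of -0.13 (n = 1857), and those of 8000 nt and over one of 0.11 (n = 647). Medians of -0.04 (n = 4473) and 0.07 (n = 3422) lay between the last 2 classes, at 2000 to under 4000 and 4000 to under 8000 nt. Both numbers had the dip at 1000 to under 2000 nt (-0.10 and -0.14) and a positive median at 8000 nt and over (0.07 and 0.15), whereas the value under 500 nt was 0.46 in number 1 and 0.10 in number 2. The quartiles of the class under 500 nt ran from -0.33 to 0.73, so single genes varied far more than the medians did. In B-like cells the medians of these 3 classes were 0.27, -0.12 and 0.14, and in T-like cells 0.31, -0.10 and 0.14. With ribosomal protein, oxidative phosphorylation and receptor genes left out they were 0.35, -0.13 and 0.11. Without modified 2, the median at 8000 nt and over was 0.01 and that at 1000 to under 2000 nt was -0.02. Without standard 2, the median under 500 nt was 0.87. With the median length over the transcripts of a gene in place of the longest, the class under 500 nt was at 0.10 (n = 348), the lowest median moved to 500 to under 1000 nt (-0.05) and the class of 8000 nt and over, with 75 genes, was at 0.14.

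**Figure D5:**
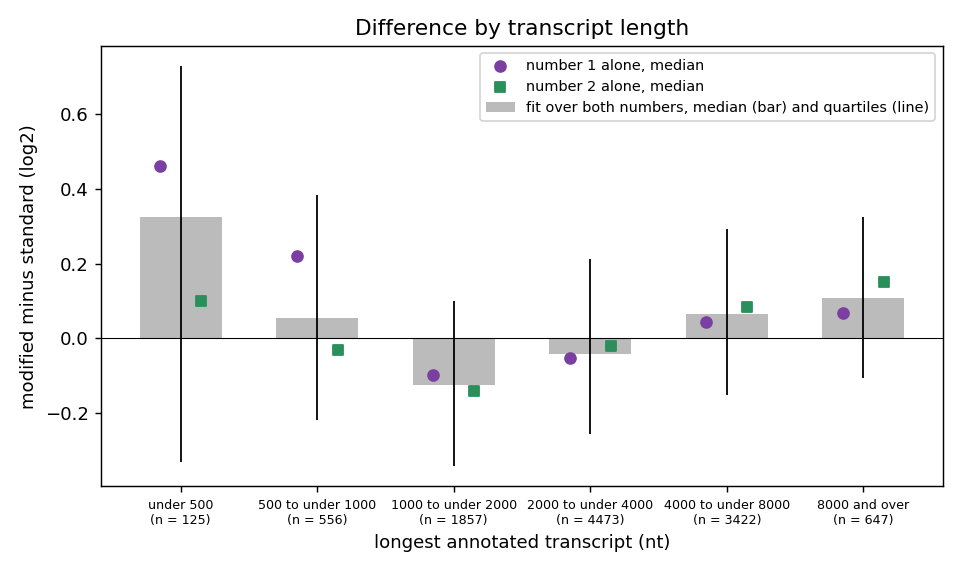
Median log2 difference between modified and standard libraries by length of the longest annotated transcript (grey bars with quartile lines, fit over both numbers), with the median of number 1 (purple circles) and number 2 (green squares). The shortest class is at 0.33 and the longest at 0.11, with a dip to -0.13 at 1000 to under 2000 nt.

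Base composition moved with the difference by less. From the lowest to the highest of 5 equal classes of transcript G+C content, the median log2 fold change went from 0.06 to -0.06. The lowest class had a median transcript length of 4020 nt and the highest one of 2601 nt, so composition and length were not separate.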

How the data were processed

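For each of the 6 libraries the authors deposited raw counts of genes by cell barcode, as whole numbers. Per the submitters' processing notes the build was mm10, and Seurat was used for number 2. Aligner, annotation, strand rule and collapsing of molecular identifiers: not given in the sources used here. Kept cells (at least 200 genes, at most 20% mitochondrial counts) were summed per gene, and 563 X-linked or Y-linked genes of 20279 symbols were left out. No doublet caller was run. Clusters (scanpy 1.11.5, Leiden resolution 0.5, each library alone) were named from at least 3 markers.

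The 6 libraries were fitted in edgeR 4.0.16 (R 4.3.3) with group and pair number as terms, TMM scaling and filterByExpr, and DESeq2 1.42.0 was an alternative. Same-numbered libraries deviated together (correlations 0.59, 0.47 and 0.39 over 6758 genes), so the number was used as a block. Within-number differences used CPM plus 1. No 2 libraries differed by as little as sampling noise. The fit was tested on simulated data, with 50 genes changed at each size. It called 41 and 47 of the 50 at true log2 changes of -2 and 2, and 8 and 10 of the 50 at -1 and 1. Of 10847 unchanged genes 3 were called. A gene that did not pass in these data can therefore still differ by a log2 of 1. Every simulated gene was given the same spread, which was not the spread fitted here. The simulation drew library sums without cells, so calls that rest on 1 cell could not arise in it. Depth ranged from 351335 to 2352116 tested counts per library, and intervals cover counting error only.

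Named genes were up to 15 largest rises and falls among those called, at 50 CPM or more and with the same sign in both numbers (filled up to 8 with the smallest p), up to 4 called members of each list or its 2 most abundant, and 2 per length class. Members and lists were chosen with earlier results of these data known. Transcript lengths came from GENCODE M21 (19900 symbols matched once). Values of 1 called gene are not reported here.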

Additional observations from a re-analysis of the deposited data

Results flagged for a closer look

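Igkc, the constant region of the kappa light chain, was the 1 gene of 8934 (0.0112%) whose difference between protocols itself differed between T-like and B-like cells, in a test added after seeing the data. The difference of the log2 fold changes, T-like minus B-like, was 0.75 ± 0.13 (SE, edgeR adjusted p = 0.00037, 345 genes at an unadjusted p under 0.05). In B-like cells Igkc had 36813 and 17397 CPM with the standard protocol and 18112 and 15373 CPM with the modified one. In T-like cells, which do not make light chains, it had 152 and 289 CPM against 159 and 451 CPM. Neither class alone passed the test (log2 -0.66 in B-like and 0.48 in T-like cells, edgeR adjusted p = 0.61 and 0.85). These 2 values come from separate fits of each class, with the pair number as a block and their own scaling, whereas the difference of 0.75 comes from 1 fit of both classes with a term for each library, so they do not subtract to it. The standard 1 value in B-like cells stands apart, in the library where most Jchain counts lay in B-like clusters, and its part in this result was not tested.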

How the results depend on the processing

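The counts of called genes depended on the setting. Without the replicate block 0 genes were higher and 0 lower, although the numbers pair the libraries, and the fit of all barcodes also gave 0 and 0. Higher and lower calls were 5 and 4 with the 4 5′ libraries alone, 3 and 4 with DESeq2, 58 and 32 with no filter on low counts, 4 and 0 in T-like cells, 4 and 8 without the top cell of each gene. Lower calls were 20 among cells of 300 or more genes, 3 in B-like cells and 7 with globin and receptor genes left out. Leaving out 1 library at a time gave 5 to 131 higher and 4 to 87 lower genes, and a group left with 1 library is assumed to vary like the others.

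Over 19 called genes and Tomm7, 220 of the alternative values kept their direction and their side of the threshold, 111 no longer passed, 4 newly passed and 9 turned. Those that turned were Hbb-bs over all barcodes (0.43) and in B-like cells (0.74), Hbb-bt over all barcodes (0.50), in B-like (0.75) and in T-like cells (0.20), Igha in B-like cells (-0.91) and without modified 2 (-1.38, and up to 5.09 without another library), and S100a8 (-1.46) and S100a9 (-1.88) without the top cells.

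The median of genes under 500 nt was 0.14 to 0.87 when 1 library was left out and 0.10 with median transcript lengths, that of 1000 to under 2000 nt was -0.18 to -0.0179, and -0.0368 with those lengths, and that of 8000 nt and over was 0.0063 to 0.17. The lowest G+C class was at 0.0075 among genes of at least 50 CPM, and the highest at 0.0019 in number 1 alone. Genes per cell at 300 counts differed by -2.06 in T-like cells, against 1.04 in all. The T-like share differed by 0.39 percentage points without standard 1 and by -9.97 without standard 2, against -4.79 in all. Depth limits number 1 most, where standard 1 held 365826 counts in kept cells.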
